A study of Mus musculus with 2 samples.

Results

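The microRNA (miRNA) genes described here lie around Mir127 in the imprinted Dlk1-Dio3 domain of mouse chromosome 12. They are Mir493, Mir337, Mir540, Mir665, Mir431, Mir433, Mir127, Mir434 and Mir136. They were chosen by annotation: these 9 symbols in GENCODE M21, on the plus strand of chromosome 12, upstream of Rtl1, in the direction in which the miRNAs are transcribed, or opposite it. The rule itself used no measured value, but it was chosen with earlier results of these data known. Mir3070a, Mir3070b and Mir432 also lie between Mir493 and Mir136 and are not among the 9 symbols. The set is 9 of the 2202 miRNA genes in the deposited tables. The data are 2 small-RNA sequencing libraries of heart from male B6CASTF1/J mice aged 4 days, which are F1 hybrids between C57BL/6J and CAST/EiJ. Both libraries belong to 1 group, with no treatment, mutation or control group in the labels. The labels number the animals male 03 and male 04 but give both the same donor identifier, so it is not certain that the spread between the libraries is between animals. Each hairpin's reads come from heart tissue of several cell types, where fewer cells of a type and less RNA per cell cannot be told apart.

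In this domain the 2 parental chromosomes are read differently. The paternal copy expresses the protein-coding genes Dlk1, Rtl1 and Dio3, and the maternal copy expresses the long noncoding RNAs Meg3, Rian and Mirg, with the miRNAs and small nucleolar RNAs cut from the same transcripts. Rtl1 derives from a retrotransposon and is needed for the fetal vessels of the placenta. The miRNAs opposite it match its mRNA perfectly and are known to guide its cleavage, so that a maternal transcript limits a paternal one. The deposited counts are per gene, so they separate neither the arms of a hairpin nor the parental copies.

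All 9 hairpins had the same coordinates in the RefSeq table (GRCm38, the mm10 assembly) as in GENCODE. On chromosome 12, plus strand, mm10, the hairpins upstream of Rtl1 lie at chr12:109580233-109580315 (Mir493), chr12:109585789-109585885 (Mir337), chr12:109586080-109586146 (Mir540) and chr12:109586314-109586407 (Mir665). Leaving miRNA genes aside, no GENCODE M21 gene contains any of these 4 hairpins. The miRNA gene Mir3544, on the minus strand, overlaps Mir337 over 61 bases. The other 5 lie at chr12:109590447-109590537 (Mir431), chr12:109591715-109591838 (Mir433), chr12:109592846-109592915 (Mir127), chr12:109594506-109594599 (Mir434) and chr12:109595327-109595388 (Mir136). Each of these 5 falls wholly inside the coding sequence of Rtl1 on the opposite strand, in its large exon (chr12:109589193-109595488, coding from 109590172 to 109595403). Counted from the start codon, the hairpin of Mir136 begins opposite coding base 16 and that of Mir431 opposite coding base 4867 of 5232. Mir337, Mir540 and Mir665 sit 194 and 167 bases apart, whereas the gaps between the hairpins opposite Rtl1 run from 727 to 1590 bases.

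The mature sequences below (RefSeq, GRCm38, 5′ to 3′) show why the set divides at Rtl1. Capitals mark the seed, bases 2 to 8. A search of the 6358-base Rtl1 transcript of GENCODE M21 for perfect complements found exactly 1 site for each of the 10 arms of the 5 opposite hairpins, and none for the 8 arms of Mir493, Mir337, Mir540 and Mir665.
miR-431-5p: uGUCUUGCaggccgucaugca
miR-431-3p: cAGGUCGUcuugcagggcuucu
miR-433-5p: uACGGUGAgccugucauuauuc
miR-433-3p: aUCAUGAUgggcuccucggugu
miR-127-5p: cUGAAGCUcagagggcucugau
miR-127-3p: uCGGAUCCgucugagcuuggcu
miR-434-5p: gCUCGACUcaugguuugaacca
miR-434-3p: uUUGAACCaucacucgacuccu
miR-136-5p: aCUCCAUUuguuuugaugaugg
miR-136-3p: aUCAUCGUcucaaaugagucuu
The site of miR-127-3p covers bases 2642 to 2663 of the Rtl1 transcript, with the part that faces the seed in capitals.
Rtl1 site of miR-127-3p: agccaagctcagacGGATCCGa
A perfect match follows from the position of the hairpins and is a description of the sequence, not a measurement of cleavage.

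For the upstream hairpins, the arms of Mir337 and Mir665 are given because these genes are taken up again below.
miR-337-5p: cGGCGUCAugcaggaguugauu
miR-337-3p: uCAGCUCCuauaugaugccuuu
miR-665-5p: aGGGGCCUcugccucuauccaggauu
miR-665-3p: aCCAGGAGgcugaggucccu
No 2 of the 18 arms share a seed, so the 9 genes are neighbours by position and not a seed family. Of the 18 arms, 17 also share their seed with no other mature mouse miRNA of the table, whereas 27.9% of its 1679 mature miRNAs share theirs with another. The exception is miR-540-3p, whose seed is also that of miR-6915-5p on chromosome 10.
miR-540-3p: aGGUCAGAggucgauccugg
miR-6915-5p: aGGUCAGAgcagauggagguucgu
Mir6915 had 2 and 1 counts in replicates 1 and 2, against 1732 and 959 for Mir540. No 20-base window of the 9 hairpins occurs in another annotated miRNA hairpin elsewhere. The multi-mapped reads, 38.1% and 42.3% of all reads, are not in the gene counts, and copies outside annotated hairpins were not searched for. Mir434 carries the longest internal repeat of the set, a stretch of 13 bases present in 2 copies, in capitals.
Mir434 hairpin: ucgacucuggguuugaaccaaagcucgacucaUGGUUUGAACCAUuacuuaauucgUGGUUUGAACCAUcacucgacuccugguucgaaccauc
Its repeat is shorter than either arm. Hairpin length ran from 62 bases for Mir136 to 124 for Mir433, and GC content from 40.3% for Mir136 to 61.2% for Mir540, around a median of 53.2% beside 51.7% over 1005 mouse hairpins. Of the arms, 38.9% start with U, and 40.9% of all mature miRNAs of the table do.

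**Figure D1:**
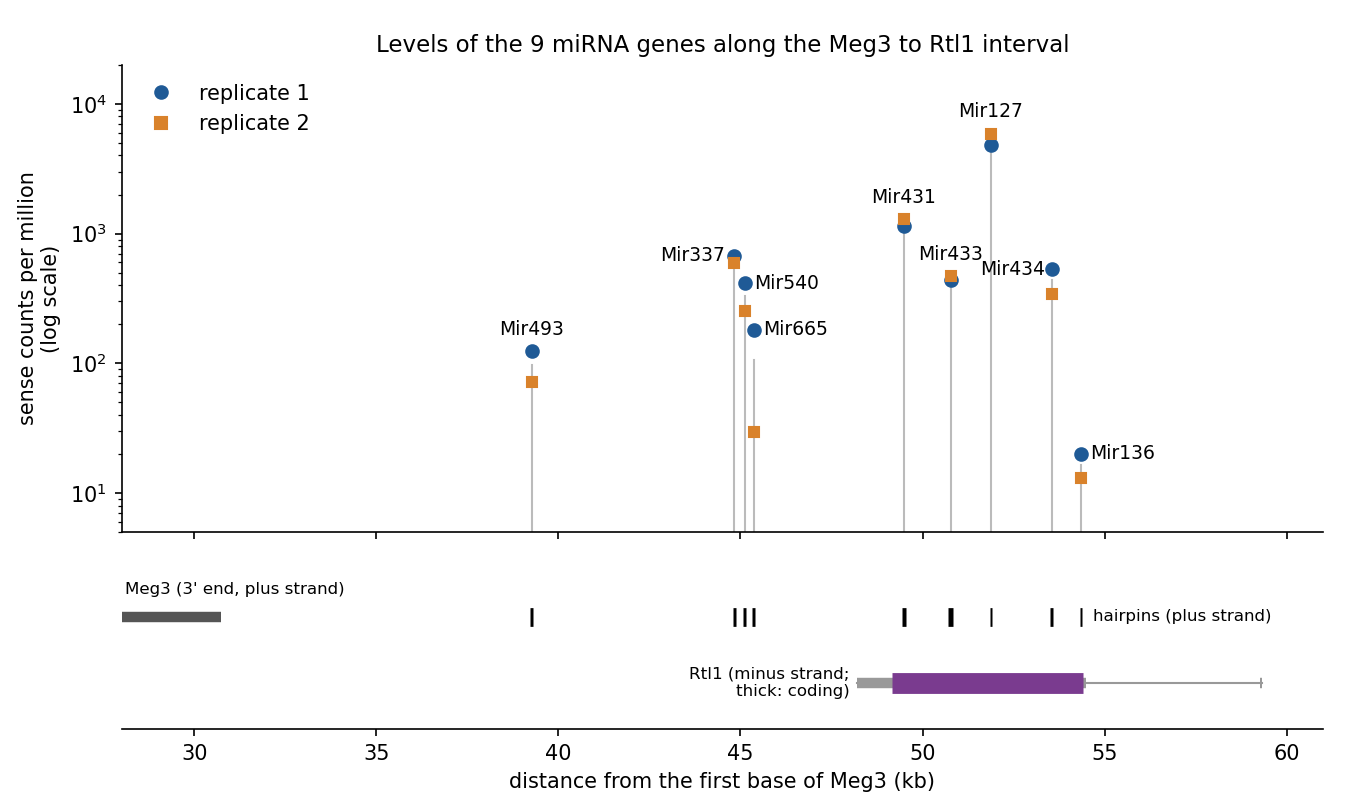
Levels along the locus. The upper panel plots CPM of sense counts on a log axis against distance in kb from the start of Meg3, with circles for replicate 1, squares for replicate 2 and a stem up to their mean. The lower panel shows the hairpins, the end of Meg3 and Rtl1. Mir127 stands highest, at 4849 and 5849 CPM, in the middle of the coding part of Rtl1, and Mir136, opposite its start, is lowest at 20.0 and 13.2 CPM.

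The libraries held 4196577 and 3801738 sense counts, that is, reads on the gene's own strand. Levels are in CPM, sense counts scaled to a library total of 1000000, and errors are SDs over the 2 libraries (n = 2). The cardiomyocyte miRNAs Mir208a, Mir208b and Mir499 were present (3 of 3, summed 13054 and 8858 CPM). Of 6 neuron genes, 4 had 0 counts in both libraries, among them all copies of Mir124a. The sum of all 6 was 0.24 and 22.1 CPM in replicates 1 and 2. Nearly all of it was Mir9-3, with 1 and 82 counts, or 0.24 and 21.6 CPM. The skeletal muscle gene Mir206 had 29.3 and 38.1 CPM and the liver gene Mir122 309 and 105 CPM. The red blood cell list (2 genes) had 351 and 297 CPM, and the white blood cell list (3 genes) 523 and 735 CPM. Copies of Mir124a and Mir9 share sequence, so multi-mapped reads can lower those counts.

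Each of the 9 genes reached at least 10 counts in either library, as did 344 of the 2202. Their summed share of sense counts was 0.837% in replicate 1, with a 95% Wilson interval from 0.829 to 0.846. In replicate 2 it was 0.891% (0.882 to 0.901), and the mean was 0.864% ± 0.038. Intervals here allow for counting error only and treat each read as independent. Amplified reads are not independent molecules, so even counting error may be understated.

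Mir127, one of the miRNAs that cleave Rtl1 mRNA, held most of these reads. It had 20351 and 22238 counts in replicates 1 and 2, or 4849 and 5849 CPM, a mean of 5349 ± 707 CPM. It ranked 36 and 32 among all miRNA genes. Of the counts of the 9 genes it took 57.9% (57.4 to 58.4) in replicate 1 and 65.6% (65.1 to 66.1) in replicate 2. In the whole table, the 3 genes whose levels in both libraries lay nearest to those of Mir127 were Mir107 at 3653 and 5610 CPM, Mir499 at 5794 and 4633 CPM, and Mir93 at 5986 and 7427 CPM. Their distances from it were 0.41, 0.42 and 0.46 in log2(CPM + 1) over the 2 libraries. With 2 libraries this measures nearness of level only.

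Mir431, opposite the end of the Rtl1 reading frame, came next with 4789 and 4901 counts, or 1141 and 1289 CPM (mean 1215 ± 105). It ranked 73 and 60 in the table. Mir127 exceeded it by 4.25-fold (exact 95% interval 4.12 to 4.39) in replicate 1 and 4.54-fold (4.40 to 4.68) in replicate 2. The ratios between the 2 most abundant genes of the set were thus close in size. Their intervals, which allow for counting error only and treat reads as independent, did not overlap.

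The remaining hairpins opposite Rtl1 were lower. Mir433 had 1835 and 1778 counts, or 437 and 468 CPM (mean 452 ± 21.5), the narrowest relative spread of the 9. Mir434 had 2227 and 1306 counts, or 531 and 344 CPM (mean 437 ± 132). Mir136, like Mir127 long known as an antisense miRNA of Rtl1, had only 84 and 50 counts, or 20.0 and 13.2 CPM (mean 16.6 ± 4.85). Its mean was the lowest of the set, although its hairpin lies 727 bases beyond that of Mir434 on the same strand. The 5 genes of the set opposite Rtl1 thus spanned its whole range, from the highest to the lowest level.

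Of the hairpins upstream of Rtl1, Mir337 was the most abundant, with 2840 and 2266 counts, or 677 and 596 CPM (mean 636 ± 57.1). Mir540 had 1732 and 959 counts, or 413 and 252 CPM (mean 332 ± 113). Mir665, which lies 167 bases after Mir540, had 760 and 113 counts, or 181 and 29.7 CPM (mean 105 ± 107). Its SD was as large as its mean, so these libraries do not fix its level. Mir493, the hairpin nearest to Meg3, had 519 and 271 counts, or 124 and 71.3 CPM (mean 97.5 ± 37.0).

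**Figure D2:**
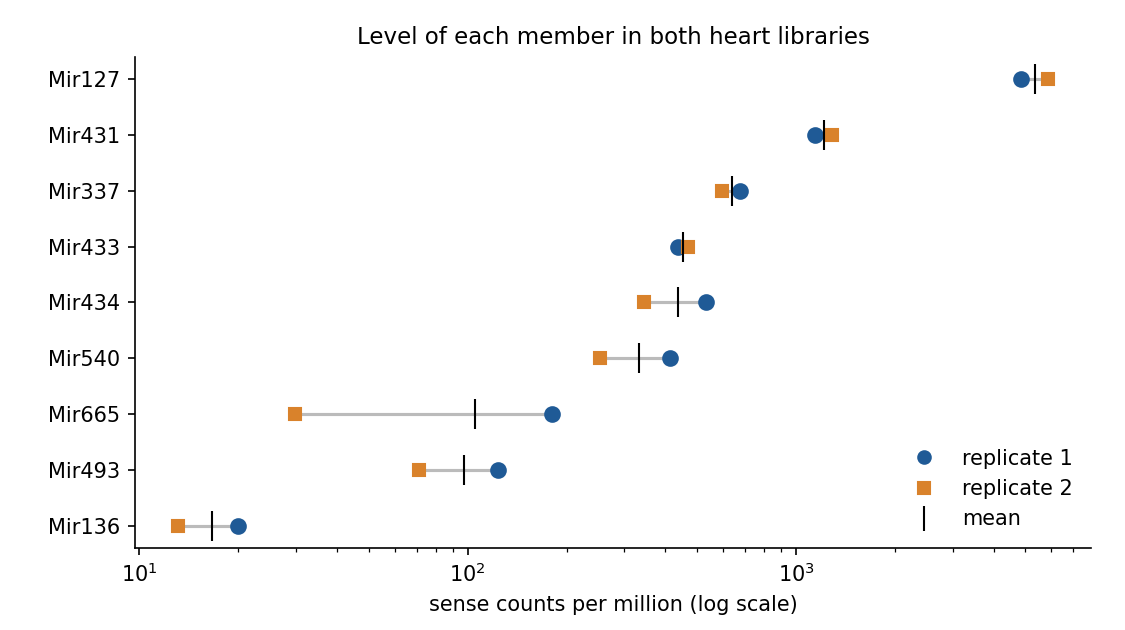
Level of each gene in CPM of sense counts (log axis), with a circle for replicate 1, a square for replicate 2 and a tick for their mean. Mir127, Mir431 and Mir337 keep the top 3 places in both libraries. The gap between the libraries is widest for Mir665, at 181 and 29.7 CPM, and the symbols of Mir433 nearly touch.

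The order Mir127, Mir431, Mir337 at the top and Mir136 at the bottom was the same in both libraries. Mir431 exceeded Mir337 by 1.69-fold (exact 95% interval 1.61 to 1.77) and 2.16-fold (2.06 to 2.27). Mir337 exceeded Mir433 by 1.55-fold (1.46 to 1.64) and 1.27-fold (1.20 to 1.36). Mir433 and Mir434 changed places: the ratio of Mir433 to Mir434 was 0.82 (0.77 to 0.88) in replicate 1 and 1.36 (1.27 to 1.46) in replicate 2. Mir665 and Mir493 did too, with ratios of 1.46 (1.31 to 1.64) and 0.42 (0.33 to 0.52), so neither pair is ordered by these data. Mir434 stayed above Mir540 by 1.29-fold and 1.36-fold, and Mir493 above Mir136 by 6.18-fold and 5.42-fold.

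These ratios are of reads per hairpin. Mature arms have similar lengths (19 to 26 bases), but hairpins differ more. Per 100 bases of hairpin, Mir127 had 7642 CPM, Mir431 1335, Mir337 656, Mir540 496, Mir434 465, Mir433 365, Mir493 117, Mir665 112 and Mir136 26.7. On this scale the top 3 and the lowest place were held by the same genes, while Mir433, the longest hairpin, fell behind Mir540 and Mir434.

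The libraries were then compared gene by gene. The comparison is between these libraries and not between conditions. Each gene's count was set against the rest of its library by Fisher's exact test (two-sided), in which counting is the only source of error, and p-values were adjusted by Benjamini-Hochberg over the 441 genes with 10 or more counts over both libraries. All 9 genes were tested. At an adjusted p under 0.05, 8 of them differed, 2 higher and 6 lower in replicate 2. Of all tested genes 56.9% differed: 20.4% were higher and 36.5% lower in replicate 2. A call is thus common in these libraries, and the sizes are given below beside the range over all tested genes. The median log2 ratio of replicate 2 over replicate 1, computed from CPM + 1, was -0.57 over the 9 genes and -0.26 over all tested genes. The central 50% of tested genes lay between -0.72 and 0.17.

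Mir127 and Mir431 were higher in replicate 2. The log2 ratio of Mir127 was 0.27 (adjusted p = 6.33e-83, Fisher's exact test) and that of Mir431 was 0.18 (adjusted p = 6.23e-09, Fisher's exact test). They stood 0.53 and 0.44 above the median of all tested genes. Mir433 did not pass the test, with a log2 ratio of 0.10 (adjusted p = 0.073, Fisher's exact test).

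The other 6 were lower in replicate 2. Mir665 had the widest gap of the set, a log2 ratio of -2.57 (adjusted p = 2.37e-104, Fisher's exact test). Its CPM, with no pseudocount, was 6.09-fold higher in replicate 1. Ranked from the lowest ratio among 243 genes of mean count 100 or more, it came 5th. Its neighbour Mir540 had -0.71 and Mir493 -0.79, with adjusted p of 6.77e-35 and 2.50e-13 (Fisher's exact test). Mir434 had -0.63 (adjusted p = 4.68e-36), Mir136 -0.57 (adjusted p = 0.036) and Mir337 -0.18 (adjusted p = 1.63e-05, all by Fisher's exact test). Mir665 and Mir493 lay below the central 50% of tested genes, and the other 4 lay within it.

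The sign of small ratios depended on scaling. Scaling by the trimmed mean of M-values (TMM, over the 441 tested genes) moved the median of all tested genes by 0.20. With it 7 of the 9 differed, 3 higher and 4 lower, while over all tested genes 54.4% differed, 28.1% higher and 26.3% lower. Mir337 turned to 0.06 and no longer differed (adjusted p = 0.21, Fisher's exact test), and neither did Mir136 at -0.34 (adjusted p = 0.25). Mir433 passed at 0.34 (adjusted p = 4.69e-12, Fisher's exact test). Mir127, Mir431, Mir665, Mir540, Mir493 and Mir434 kept sign and call under both scalings, with Mir665 at -2.33 after TMM scaling. With TMM over all 2202 genes, chosen after seeing the data, 8 differed, 4 higher and 4 lower, and over all tested genes 54.6% differed, 30.6% higher and 24% lower. edgeR's exact test was also run, with a biological coefficient of variation of 0.379 estimated from the same libraries treated as 1 group. That estimate counts the difference under test as spread, so few calls follow from its construction and their number says nothing of whether the genes differ. The test called 0 of the 9 genes and 2 of 441 (0.454%). Its unadjusted p was under 0.05 for 1 of the 9, Mir665 (p = 0.0048, adjusted p = 0.23, edgeR's exact test). Over all 441 tested genes, 25 had an unadjusted p under 0.05 in that test.

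**Figure D3:**
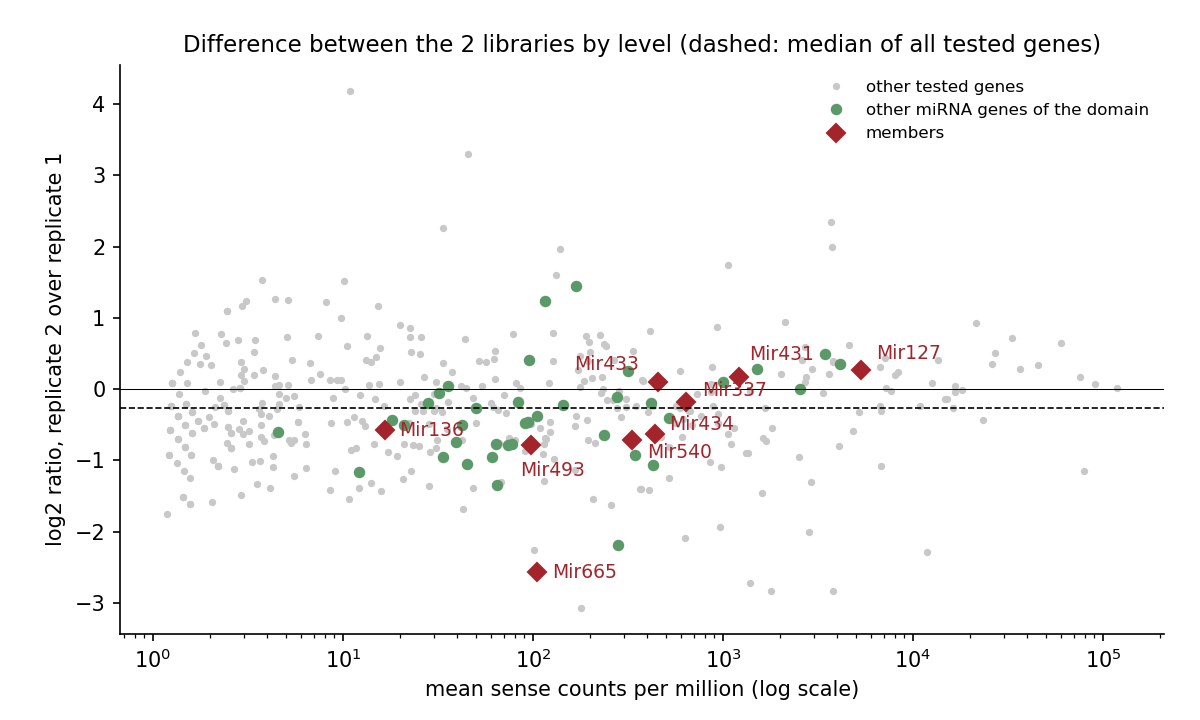
Log2 ratio of replicate 2 over replicate 1 against mean CPM of sense counts (log axis) for the 441 tested genes. Diamonds are the 9 genes, circles the other miRNA genes of the domain and dots all others, and the dashed line is the median of all tested genes at -0.26. Mir665 lies far below the rest of the set at -2.57, and Mir127 highest at 0.27.

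Composition within the set does not depend on library scaling. The 4 upstream genes together took 16.7% of the set's counts in replicate 1 and 10.7% in replicate 2. Mir540 went from 4.93% (95% Wilson interval 4.71 to 5.16) to 2.83% (2.66 to 3.01), Mir665 from 2.16% (2.02 to 2.32) to 0.334% (0.277 to 0.401) and Mir493 from 1.48% (1.36 to 1.61) to 0.80% (0.71 to 0.90). Mir337 went from 8.08% (7.80 to 8.37) to 6.69% (6.43 to 6.96). Shares within a set are bound to each other, and that of Mir127 rose by 7.71 percentage points, so a smaller share is not a lower level by itself. Mir337 had a log2 ratio of 0.06 after TMM scaling, for example, beside its smaller share. Of all tested genes 36.5% were called lower in replicate 2. Opposite Rtl1 the shares moved in both directions. Mir431 went from 13.63% (13.27 to 13.99) to 14.46% (14.09 to 14.84), and Mir433 was 5.22% (4.99 to 5.46) and 5.25% (5.02 to 5.49). Mir434 went from 6.34% (6.09 to 6.60) to 3.85% (3.65 to 4.06), and Mir136 had 0.239% (0.193 to 0.296) and 0.148% (0.112 to 0.194).

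**Figure D4:**
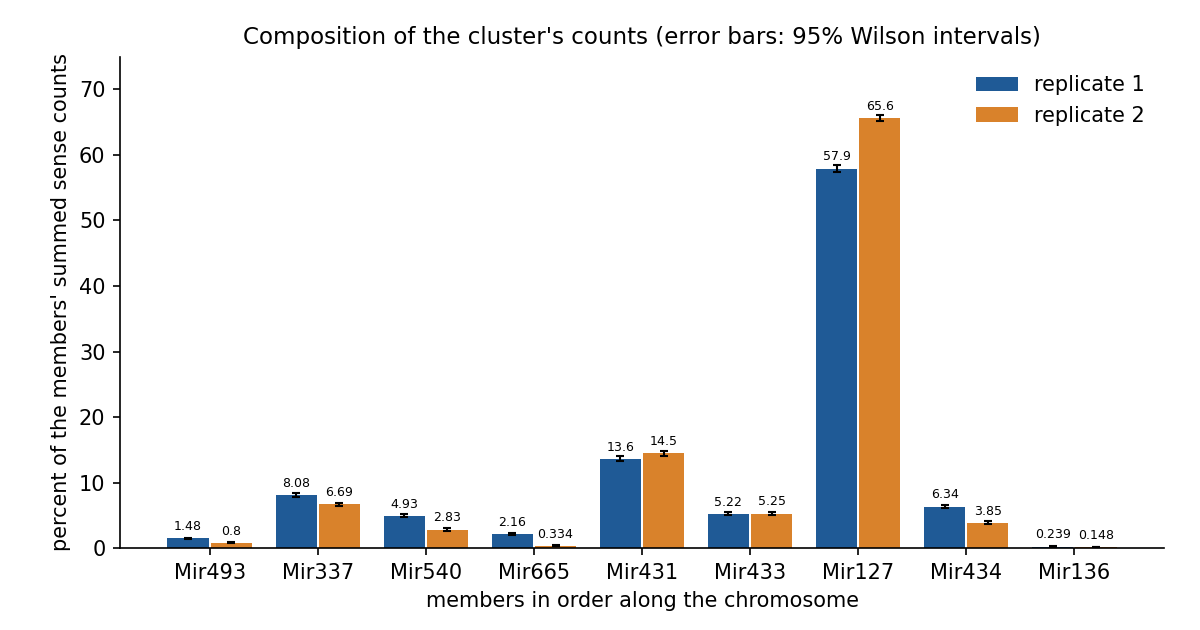
Each gene's percent of the summed sense counts of the 9 genes, in chromosomal order, with a bar for each library and 95% Wilson intervals (counting error only). Mir127 takes 57.9% and 65.6%, and the 4 bars upstream of Rtl1, Mir493 to Mir665, are all shorter in replicate 2.

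Summed over genes, the upstream set had 1394 and 949 CPM (log2 ratio of sums -0.55) and the set opposite Rtl1 6979 and 7963 CPM (0.19). Mir127 alone held 4849 and 5849 CPM of the latter sum. The median log2 ratio was -0.75 over the 4 upstream genes and 0.10 over the 5 opposite ones. Position relative to Rtl1 did not separate the single ratios, since Mir434 and Mir136 lay below Mir337. Other miRNAs also differed between the libraries: in the fibroblast list of 3 genes, Mir214 alone had 6683 and 941 of the summed 6716 and 964 CPM, with Mir199a-2 at 33.4 and 23.4 CPM and Mir199a-1 at 0. Multi-mapped reads are not in these counts, so any shared by Mir199a-1 and Mir199a-2 would be missing. The endothelial gene Mir126a had 109199 and 49330 CPM, and the smooth muscle list (2 genes) had 48576 and 79468 CPM. The cardiomyocyte sum had a log2 ratio of -0.56. Their part in the differences of the 9 genes was not tested.

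Besides the 9 genes, the domain holds 50 annotated miRNA genes on the plus strand from Meg3 to just beyond Mir410. They were taken by position and strand, and the counts do not show from which parental copy their reads come. Of the 50, 6 had 0 counts in both libraries. The 9 genes took 33.8% of the domain's sense counts in replicate 1 and 33.6% in replicate 2. Of the 50, 38 were tested, and 29 of these differed between the libraries, 8 higher and 21 lower in replicate 2, with a median log2 ratio of -0.42. Over all tested genes 56.9% differed, 20.4% higher and 36.5% lower, with a median of -0.26. All 38 had 10 or more counts in each library. Among the 344 genes with that many, adjusted by themselves, 235 differed, 86 higher and 149 lower, with a median of -0.20. The most abundant of the 50 were Mir379 at 4147 ± 703 CPM, Mir411 at 3438 ± 821 CPM and Mir541 at 2527 ± 8.11 CPM, so Mir127 had the highest mean of the whole domain. Mir379 had 3650 and 4644 CPM beside 4849 and 5849 for Mir127, and Mir127 was higher in each library. Among the 5 tested genes before Mir379, 3 differed, all lower in replicate 2, beside the same 36.5% lower over all tested genes. The nearest of them to the set are Mir673 before Mir493, with 80.8 and 47.1 CPM, and Mir341 after Mir136, with 290 and 185 CPM.

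Between the first and last hairpin of the set lie 3 further miRNA genes on the same strand, and these had almost no reads. Mir3070a had 1 and 0 counts and Mir3070b 0 and 1. They share 28 of their 70 windows of 20 bases with each other, so reads from both may be among the multi-mapped ones. Mir432 lies between Mir434 and Mir136 at chr12:109594956-109595030, so it too falls wholly opposite the coding sequence of Rtl1. It had 0 counts in both libraries and no window in common with another hairpin. A count of 0 allows up to 3 counts, or 0.715 CPM in replicate 1 and 0.789 CPM in replicate 2. Mir432 was not detectable at this depth, while its neighbours Mir434 and Mir136 had 1306 and 50 counts in the library where each was lower.

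Annotated hairpins also lie on the opposite strand of Mir337 and Mir136. Mir3544 (chr12:109585813-109585873, minus strand) overlaps Mir337 over 61 bases, and Mir3071 (chr12:109595318-109595397, minus strand) covers all 62 bases of Mir136. On the opposite strand, miR-3544-5p overlaps miR-337-3p over 21 bases and miR-3071-3p overlaps miR-136-5p over 20 bases. They are shown so that the strand question can be seen in sequence, with seeds in capitals.
miR-3544-5p: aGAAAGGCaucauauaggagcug
miR-3071-3p: aUCAUCAAaacaaauggagucc
Nearly all reads of these pairs came from the plus strand. Mir3544 had 4 and 1 counts against 2840 and 2266 for Mir337, or 0.141% of the pair (95% Wilson interval 0.055 to 0.361) and 0.044% (0.0078 to 0.249). Mir3071 had 1 and 0 counts against 84 and 50 for Mir136. Over the hairpins of Mir431, Mir433, Mir127 and Mir434 no read lay on the Rtl1 strand in either library, a limit of 3 counts for each. Rtl1 mRNA itself is not measured in small-RNA libraries. Across the 411 tested genes without a miRNA gene on the other strand, 18 had any opposite-strand count, 48 and 61 counts in all beside 3099112 and 3034891 sense counts.

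Counting without regard to strand removed these 2 genes from the data. Mir337 and Mir136 each had 0 counts in both libraries in the column counted without regard to strand, while the other 7 had the same count in both columns. A loss of all counts in that column was seen for 27 of the 441 tested genes, 4 of them among the 38 other tested genes of the domain. Of the 7 genes left, 5 differed between the libraries in that column, 1 higher and 4 lower in replicate 2, while 57.2% of the 414 genes tested there differed, 16.2% higher and 41.1% lower. For Mir337, the third most abundant of the set, the choice of column decides whether it is seen at all.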

How the data were processed

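Both deposited small-RNA libraries of heart were analysed. The authors deposited raw read counts per miRNA gene, aligned to mm10 with GENCODE M21 genes per the deposited description files; which aligner and counter made them is not given in the sources used here. Each table has counts without regard to strand, on the gene's strand and on the opposite strand, an assignment read from the values, since the tables have no header. Multi-mapped reads are set aside by the authors. Sense counts were used, with totals of 4196577 and 3801738 (1 read is 0.238 and 0.263 CPM). Genes with 10 or more counts over both libraries (441) were compared by Fisher's exact test (two-sided), p-values adjusted by Benjamini-Hochberg (SciPy 1.17.1, Python 3.11.15), at a threshold of 0.05. Log2 ratios used CPM + 1. A quasi-likelihood fit of these libraries against each other leaves no residual degrees of freedom and was not made. Alternatives used edgeR 4.0.16 (TMM, exact test) and DESeq2 1.42.0 size factors in R 4.3.3, other minimums, other library sizes and counts without regard to strand. Fisher's exact test with its adjustment was tried on simulated Poisson counts, which hold no spread between libraries beyond counting. The other steps were not tested on simulated data. Besides the cell type lists, named genes were all 9 of the set, the 3 most abundant other genes of the domain, genes between or overlapping the 9, the 3 nearest in level to Mir127, and any sharing a seed. Mir673 and Mir341, the nearest tested genes of the domain on either side of the set, were added outside this rule. The members, lists and rules were chosen with earlier results of these data known. Mature miRNAs and hairpins came from RefSeq (GRCm38.p6) and the Rtl1 transcript from GENCODE M21. All 9 symbols matched in both.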

Additional observations from a re-analysis of the deposited data

Results flagged for a closer look

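Replicate 1 had 4 reads on the strand opposite Mir337, where Mir3544 is annotated. The result is listed because these reads are outside the sense counts used for every comparison and exceed 3 counts, the limit that a count of 0 allows. Replicate 2 had 1 such read. They made up 0.141% and 0.044% of the reads of the pair, beside 2840 and 2266 sense counts of Mir337. Among 30 tested genes that have a miRNA gene on the other strand, 15 had opposite-strand counts, and among 411 without, 18 did.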

How the results depend on the processing

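With 2 libraries, the depth limits Mir136 most, at 84 and 50 counts. Without regard to strand, 7 of the 9 genes could be tested and 5 differed, 1 of them higher in replicate 2 (57.2% and 16.2% of the 414 genes tested), with Mir431 no longer called (adjusted p = 0.053, Fisher's exact test). edgeR's exact test gave 0 calls, 0 higher and 0 lower, beside 8, 2 and 6 with Fisher's exact test; its spread was estimated from the difference under test, so these are no check of the calls. TMM over all genes, chosen after seeing the data, gave 4 higher (30.6% of all tested genes). The log2 ratio of Mir337 turned from -0.18 to 0.061 with TMM, 0.040 with DESeq2 size factors, 0.12 with TMM over all genes and 0.061 in edgeR's exact test; with TMM over the 344 genes of 10 or more counts in each library, also chosen after seeing the data, it was -0.04. These scalings moved the median of all tested genes by 0.20, 0.19, 0.25, and 0.13 for the last, and counting without regard to strand by -0.12. Mir433 passed the test under all 4 of these scalings, and Mir136 under none of them, nor with no count minimum (adjusted p = 0.059, Fisher's exact test). Mir337 was called higher in replicate 2 with TMM over all genes (adjusted p = 0.0064, Fisher's exact test), but lower with library totals. It was not called under the others of these scalings. Mir127, Mir493, Mir540, Mir665 and Mir434 kept direction and call in every alternative but edgeR's exact test. The summed share of 0.864% became 1.04% without regard to strand, 0.365% of all reads and 0.329% without Mir127, and ranged from 0.837% to 0.891% with 1 library left out. A difference between libraries cannot be tested with either left out. No paired analysis was possible because both libraries belong to 1 group.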

Other observations

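Elsewhere in the domain, some genes also differed widely between the libraries. They were chosen after their values were seen. Mir381 had 458 and 100.2 CPM in replicates 1 and 2, a log2 ratio of -2.18 beside -2.57 for Mir665. Mir376c went the other way, with 89.8 and 247 CPM (log2 ratio 1.45), as did Mir380 with 68.4 and 163 CPM (1.24). Wide gaps in both directions thus occurred among genes from Mir379 on. Mir541, with 2522 and 2533 CPM, had a log2 ratio of 0.01 and did not pass the test (adjusted p = 0.82, Fisher's exact test).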
